A study of Mus musculus with 4 samples.

Results

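The proteasome genes described here were the 50 protein-coding genes of mm10 whose symbols begin with Psma, Psmb, Psmc, Psmd, Psme, Psmf or Psmg followed by a number, out of 21938 protein-coding genes in the GENCODE M21 basic annotation. The symbols chose them and no measured value did. RNA polymerase II (Pol II) ChIP-seq peak lists from sorted brain endothelial cells were compared at these genes in 4 libraries, with 2 from old WT Cre mice and 2 from young EC-K4KO mice. WT Cre mice carried the inducible, endothelial CDH5-CreERT2 transgene, and EC-K4KO mice carried it together with floxed Klf4. Both groups were on a C57BL/6J background and received tamoxifen for 5 days at 8 wk of age, and each library came from 200000 cells. Old mice were 20 to 23 mo old and young mice 4 to 6 mo. Genotype and age differed together and their effects cannot be told apart; Pol II libraries of young WT Cre or old EC-K4KO mice were not analysed here. The libraries are named below as the old and young replicates 1 and 2. The labels number the libraries of a group as replicates and do not say whether they came from separate animals.

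The proteasome is the large protease that degrades ubiquitin-tagged proteins in the cytosol and nucleus. Its core particle is a barrel of outer alpha rings and inner beta rings, and the beta rings carry the proteolytic sites. The regulatory particle that caps the barrel holds a ring of ATPases, which unfold substrates and feed them into the core, and non-ATPase subunits, which bind ubiquitin chains and remove them. Interferon induces alternative catalytic beta subunits that form the immunoproteasome, and activators, an inhibitor and dedicated assembly chaperones act on the core.

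The peak caller counted between 22705175 and 65734178 fragments a library, and the lists held 78851 and 39674 peaks in the old and 35638 and 235591 in the young replicates. The longest list, young replicate 2, came from the fewest fragments. It also had the highest counts of covered proteasome genes below, and list length was made equal only in the setting named with them. At Klf4, the targeted gene, a promoter peak was listed in both young EC-K4KO libraries (fold enrichment 4.2 and 4.17) and in neither old WT Cre library; a Pol II peak there does not measure the transcript, so it does not check the labels. Of 14 endothelial marker genes, 4, 6, 0 and 7 had a promoter peak in that order of libraries (the old and then the young replicates), beside 25.6%, 24.5%, 10.6% and 67.5% of all protein-coding genes, and 6 of them had none in any list. Of 8 microglial markers 3, 1, 0 and 6 had one, of 6 astrocyte markers 2, 1, 1 and 3, of 7 oligodendrocyte markers 0, 1, 1 and 6, of 6 neuronal markers 0, 1, 1 and 4, and of 6 pericyte and smooth muscle markers 2, 0, 2 and 3. Endothelial markers thus had the highest share of these lists in old replicate 2, and in the other 3 libraries at least 1 list of another cell type had a higher share.

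The share of proteasome genes with Pol II at the promoter differed more between replicates than between groups. A promoter peak is here a listed peak with any base within 1500 bp of an annotated transcription start site (TSS) of the gene. In old replicate 1, 13 of 50 proteasome genes (26%) had one, beside 25.6% of all protein-coding genes. In old replicate 2 it was 22 genes (44.0%), beside 24.5% of all genes. In young replicate 1 it was 3 genes (6.0%), beside 10.6%, and in young replicate 2 it was 44 genes (88.0%), beside 67.5%. The share was therefore near the level of all genes in 1 library, below it in 1 and above it in the other 2. The group means were 35% ± 12.7 (SD, n = 2) in old WT Cre and 47.0% ± 58.0 (SD, n = 2) in young EC-K4KO, and the difference was smaller than the spread within the young group. The exact permutation p of this difference was 1.0 (two-sided), where 2 libraries against 2 allow none below 0.33.

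Weighting for gene length lowered the shares of all genes a little in each library. Proteasome genes were shorter than average, with a median of 11600 bp against 17400 bp. When the genes were weighted to the lengths of the proteasome genes in 10 length classes, 23.2%, 21.7%, 9.33% and 64.6% of all genes had a promoter peak in the same order of libraries. With all lists limited to the 35638 leading peaks, 8, 22, 3 and 28 proteasome genes had one, beside 11.8%, 22.6%, 10.6% and 27.7% of all genes. At promoters the 2 young lists thus differed at these genes also when they were of equal length, while the gene body counts given further on were then 9 and 8.

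**Figure D1:**
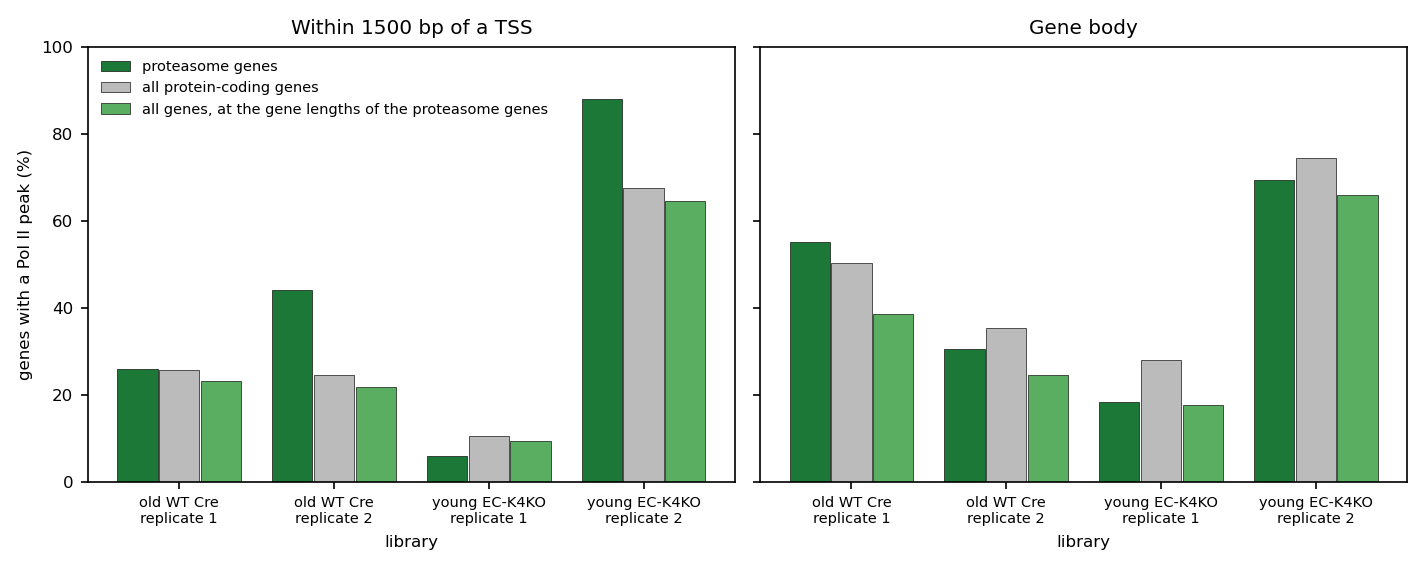
Bars show the percentage of genes with a listed Pol II peak within 1500 bp of a TSS (left) and in the gene body (right) in each of the 4 libraries, for the proteasome genes, all protein-coding genes, and all genes weighted to the lengths of the proteasome genes; each bar is 1 library, so there are no error bars. The promoter share of proteasome genes ran from 6.0% in young replicate 1 to 88.0% in young replicate 2.

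Other gene families that most cells transcribe showed a like order of libraries. Promoter peaks were listed at 29.8%, 36.9%, 9.52% and 84.5% of 84 cytosolic ribosomal protein genes, and at 34.0%, 42.7%, 15.5% and 78.6% of 103 genes of respiratory chain subunits and their assembly. In old replicate 2 the 44.0% of proteasome genes stood beside 36.9% and 42.7% in these families, and no difference between the families was tested. Olfactory receptor genes, which endothelial cells are not known to use, had 7.14%, 2.73%, 5.81% and 24.8% of 1135 genes covered. In young replicate 1 the share of proteasome genes (6.0%) was close to that of the olfactory receptor genes (5.81%).

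No proteasome gene had a promoter peak in all 4 libraries, beside 2.22% of all genes. There were 6 genes with a peak in 3 libraries (12%, beside 10.9% of all genes), 23 with a peak in 2 (46%, beside 25.2%), 18 with a peak in 1 (36%, beside 36.2%), and 3 with none (6.0%, beside 25.4%). Both old WT Cre lists held a promoter peak at 6 proteasome genes (12%, beside 10.1% of all genes), namely Psma2, Psma3, Psma8, Psmc3, Psme4 and Psmg2. These were 46.2% of the genes with a peak in replicate 1 and 27.3% of those in replicate 2, while over all genes the shared genes were 39.5% and 41.3% of the respective lists. Both young EC-K4KO lists held a peak at 2 proteasome genes, Psmd13 and Psme3 (4.0%, beside 9.11%). Psmc3 alone had a peak in both old and neither young library (background 0.784% of all genes), and Psmd13 alone in both young and neither old library (background 3.09%). The comparison thus had 1 proteasome gene on each side. Both counts became 0 at q of at most 1e-05 (all genes 0.438% for the old and 1.2% for the young side). They were also 0 at a fold enrichment of at least 4 (0.41% and 2.34%).

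**Figure D2:**
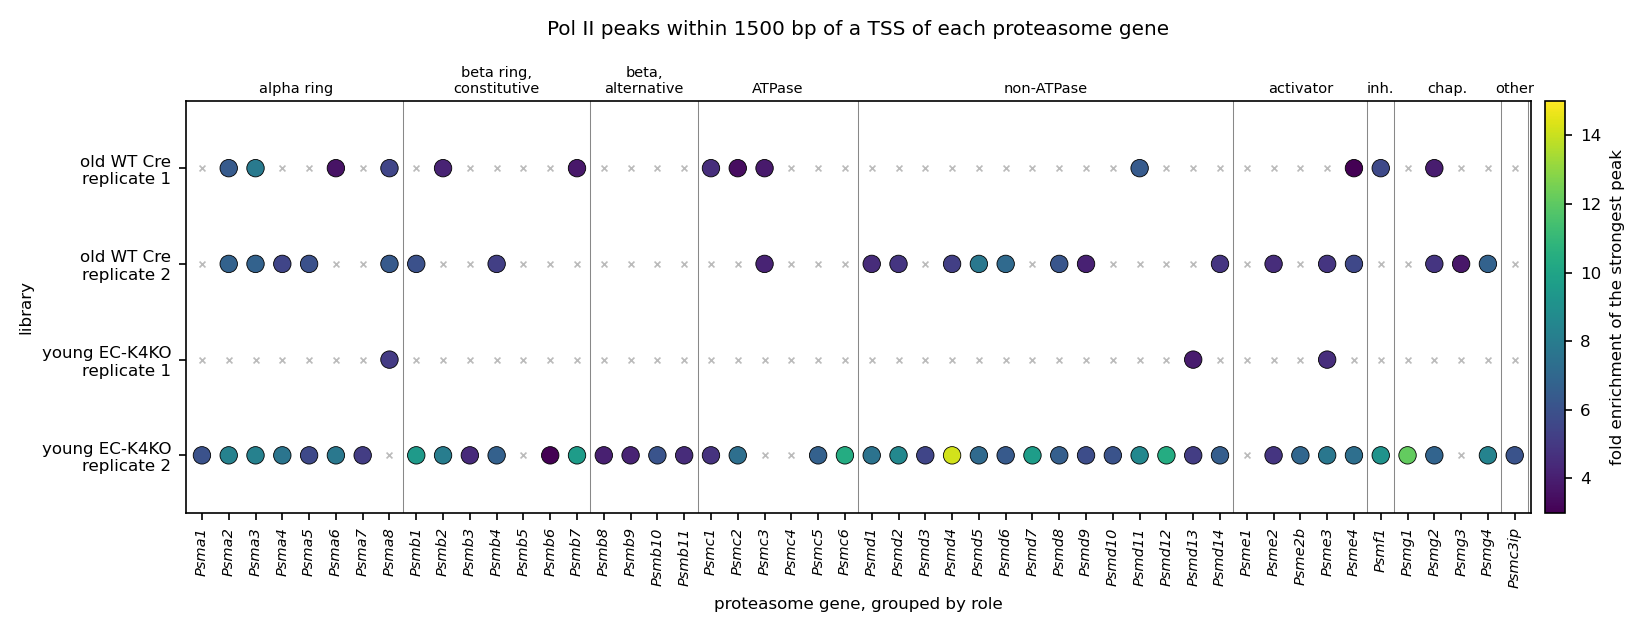
Each column is a proteasome gene, grouped by role, and each row a library; a filled circle marks a Pol II peak within 1500 bp of a TSS, coloured by the fold enrichment of the strongest such peak, and a cross marks no listed peak. The row of young replicate 2 holds 44 circles and that of young replicate 1 holds 3, and no column is filled in all 4 rows.

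The promoters shown first are those of Psme3 and Psmg4, where a listed peak reached the bases just before the TSS in both an old and a young library and those bases lie in no annotated gene, and that of Psme4, an activator with a peak in both old libraries. Other proteasome genes, such as Psma5, had peaks there in both groups too and are not shown. They were chosen after the values were seen, as were those below of genes with no peak. Each run gives the 250 bases before the 5′-most TSS, 5′ to 3′ on the strand of the gene, read from GRCm38, and capitals mark the letters of the motifs searched. Psme3 is chr11:101315963-101316212 (plus strand), Psmg4 chr13:34162714-34162963 (plus strand) and Psme4 chr11:30771476-30771725 (plus strand). The bases printed for Psme4 lay under a listed peak in young replicate 2 alone, since its old peaks lay downstream of the TSS.
Psme3: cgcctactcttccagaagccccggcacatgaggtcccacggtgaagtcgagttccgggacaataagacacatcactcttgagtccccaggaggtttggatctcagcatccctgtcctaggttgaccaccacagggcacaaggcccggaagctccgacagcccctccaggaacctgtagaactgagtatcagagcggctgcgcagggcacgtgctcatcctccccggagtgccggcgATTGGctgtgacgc
Psmg4: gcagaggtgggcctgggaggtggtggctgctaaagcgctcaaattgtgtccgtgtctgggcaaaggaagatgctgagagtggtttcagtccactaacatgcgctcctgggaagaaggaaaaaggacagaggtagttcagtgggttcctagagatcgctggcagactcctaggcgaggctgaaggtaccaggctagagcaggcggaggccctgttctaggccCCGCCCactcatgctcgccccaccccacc
Psme4: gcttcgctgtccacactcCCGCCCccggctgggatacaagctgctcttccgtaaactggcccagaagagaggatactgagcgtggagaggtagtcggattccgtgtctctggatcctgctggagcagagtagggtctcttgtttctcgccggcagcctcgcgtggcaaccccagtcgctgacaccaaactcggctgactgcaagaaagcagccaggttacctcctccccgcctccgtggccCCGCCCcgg
Psme3 held CCAAT on the opposite strand (printed ATTGG) starting 14 bases before the TSS. Psmg4 held the GC box on the opposite strand, CCGCCC, from 29 bases before it, and Psme4 had GC boxes from 232 and 9 bases before it.

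Of the 3 genes with no promoter peak in any list, Psmb5 and Psmc4 are shown for contrast, since the upstream stretch of Psme1 overlaps its annotated gene. Psmb8, an inducible catalytic subunit, had promoter peaks in young replicate 2 alone and is shown up to the annotated start of the gene, which gives 181 bases, none of them under a listed peak. Psmb5 is chr14:54618023-54618272 (minus strand), Psmc4 chr7:28050102-28050351 (minus strand) and Psmb8 chr17:34197540-34197720 (plus strand).
Psmb5: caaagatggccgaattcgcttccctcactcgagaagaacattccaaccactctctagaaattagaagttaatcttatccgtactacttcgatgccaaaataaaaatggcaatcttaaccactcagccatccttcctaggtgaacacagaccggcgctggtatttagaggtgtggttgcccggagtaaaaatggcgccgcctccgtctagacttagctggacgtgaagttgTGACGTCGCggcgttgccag
Psmc4: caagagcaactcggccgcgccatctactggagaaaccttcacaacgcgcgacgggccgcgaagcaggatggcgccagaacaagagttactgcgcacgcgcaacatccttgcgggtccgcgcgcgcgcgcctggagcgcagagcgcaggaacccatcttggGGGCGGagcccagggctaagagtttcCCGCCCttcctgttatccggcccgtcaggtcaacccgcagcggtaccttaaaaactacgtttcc
Psmb8: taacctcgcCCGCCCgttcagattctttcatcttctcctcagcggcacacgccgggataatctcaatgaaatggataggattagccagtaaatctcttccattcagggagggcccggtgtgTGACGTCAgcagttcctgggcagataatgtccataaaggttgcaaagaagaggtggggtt
Psmb5 held the core of the antioxidant response element from 20 bases before the TSS, the sequence that NRF1 (Nfe2l1) and NRF2 (Nfe2l2), activators of proteasome genes, are known to bind. Psmc4 held GC boxes 90 and 64 bases before the TSS, and Psmb8 a cAMP response element 129 bases before it. The promoters of Psmb5 and Psmc4, with no listed peak, thus also carried such motifs.

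Across the promoters of all 50 genes, in windows from 250 bp before to 50 bp after the 5′-most TSS and on both strands, each motif count is given beside the share of all genes. The antioxidant response element core (TGACNNNGC) was in 7 windows (14.0%, beside 12.6% of the windows of all genes), in Psmb2, Psmb5, Psmb6, Psmc6, Psmd12, Psmd7 and Psmd9. The ETS string ACTTCCGG was in 8 windows (16.0%, beside 4.94%), and the GC box GGGCGG in 30 (60.0%, beside 44.9%). GCATGCGC, the string of nuclear respiratory factor 1, was in 4 (8.0%, beside 3.81%), CCAAT in 18 (36.0%, beside 38.8%), TATAAA in 4 (8.0%, beside 12.5%) and TGACGTCA, which contains no other string searched in full, in 2 (4.0%, beside 2.5%). The windows had a median GC content of 57.3% (all genes 55.7%) and 17.5 CpG (all genes 12). A match describes letters in a window and was not tested as a binding site.

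The counts by role below are to be read beside the 25.6%, 24.5%, 10.6% and 67.5% of all genes with a promoter peak. In the alpha rings, which gate the core, 4, 5, 1 and 7 of 8 genes had a promoter peak in the libraries in the order used above. Psma3 had a fold enrichment over the local background of 7.89 and 6.71 in the old replicates and 8.23 in young replicate 2, and none was listed in young replicate 1. The old summits lay at 427 and -1083 bp from the TSS (downstream positive), so the 2 peaks did not overlap. Psma2 had values of 6.39, 6.71 and 8.27 in the same 3 libraries. Its promoter is shared with Mrpl32, a mitochondrial ribosomal protein gene, and in old replicate 1 and young replicate 2 the summit was nearer the Mrpl32 TSS. The peaks of Psma2 can thus not be given to 1 of the 2 genes.

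Psma8 (chr18:14706151-14762301, plus strand), an alpha subunit of the testis proteasome, was the only gene with a peak in both old libraries and in young replicate 1. Its fold enrichment was 5.45, 6.34 and 5.1 in these libraries, with summits 177, 144 and 0 bp downstream of a TSS, and the peaks overlapped. Young EC-K4KO replicate 2, with the most peaks, listed none at this promoter. Psma5 had overlapping peaks in old replicate 2 (fold enrichment 5.97) and young replicate 2 (5.66), and so had Psma4 (5.46 and 7.68). The Psma4 promoter is shared with AY074887, and in old replicate 2 the summit was nearer the AY074887 TSS. Psma6 had 3.57 in old replicate 1 and 7.82 in young replicate 2 at different places, while Psma1 (6.0) and Psma7 (5.12) were listed in young replicate 2 alone. No library covered all 8 alpha genes.

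Of the 7 constitutive genes of the beta rings, 2, 2, 0 and 6 had a promoter peak, beside 25.6%, 24.5%, 10.6% and 67.5% of all genes. Psmb5, which carries the chymotrypsin-like site, had none in any library. Psmb6, which carries the caspase-like site, had 1 weak peak in young replicate 2 (fold enrichment 3.02, pileup 8 fragments). Psmb7, which carries the trypsin-like site, had 3.76 in old replicate 1 and 9.57 in young replicate 2, at overlapping places. The noncatalytic Psmb1 (5.97 and 9.49) and Psmb4 (5.22 and 6.66) were covered in old replicate 2 and young replicate 2, Psmb2 (4.13 and 8.05) in old replicate 1 and young replicate 2, and Psmb3 (4.41) in the latter alone. The promoter of Psmb1 is shared with Tbp, which encodes the TATA-binding protein. The Psmb1 peaks of the 2 libraries did not overlap, and in young replicate 2 the summit lay at -428 bp from the TSS of Psmb1 and 219 bp from that of Tbp.

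Of the 4 alternative catalytic beta genes, which are 3 interferon-induced ones and the thymus-specific Psmb11, 0, 0, 0 and 4 had a promoter peak, beside the same 25.6%, 24.5%, 10.6% and 67.5% of all genes. Psmb8, Psmb9 and Psmb10, the interferon-induced immunoproteasome subunits, had fold enrichments of 4.04, 4.15 and 6.1 in young replicate 2, and Psmb11 had 4.49. The strongest peak at Psmb9 lay at -1310 bp from the nearest TSS of the gene and was nearer the TSS of Tap1, the peptide transporter gene that shares this promoter. None of these genes was listed in young replicate 1, so the peaks had no second library of their group.

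Of the 6 ATPase genes, 3, 1, 0 and 4 had a promoter peak. Psmc3 (chr2:91054009-91066369, plus strand) had fold enrichments of 3.83 and 4.17 in the old replicates, with overlapping peaks 314 and 44 bp downstream of a TSS, and was listed in neither young library. Both values were below the medians of promoter peaks over all genes in these lists, 3.94 and 5.0. Psmc6 had 10.4 in young replicate 2 alone, and Psmc4 had no peak in any list. Psmc1 (4.57 and 4.75) and Psmc2 (3.38 and 7.33) had overlapping peaks in old replicate 1 and young replicate 2. The Psmc2 summits lay 1567 and 1715 bp downstream of the TSS, so these peaks reached the 1500 bp window only with an edge. They also counted as gene body peaks, and the Psmc2 promoter is shared with Dnajc2.

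The 14 non-ATPase genes of the regulatory particle divided the old replicates, with 1 covered in replicate 1 (beside 25.6% of all genes) and 8 in replicate 2 (24.5%). In young replicate 1 it was 1 gene (10.6%) and in replicate 2 all 14 (67.5%). The 8 genes in old replicate 2 were Psmd1, Psmd2, Psmd4, Psmd5, Psmd6, Psmd8, Psmd9 and Psmd14, with fold enrichments from 4.1 at Psmd9 to 7.8 at Psmd5. At 7 of them the peak overlapped that of young replicate 2, with Psmd4 the exception, and over all genes with a promoter peak in both lists the peaks overlapped at 74.6%. Psmd11 was the 1 gene in old replicate 1 (6.39). No non-ATPase gene was covered in both old libraries.

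Psmd4 (chr3:95032694-95042614, minus strand), a ubiquitin receptor, had the highest fold enrichment of any proteasome gene promoter, 14.2 in young replicate 2, from a pileup of 44 fragments at 131 bp downstream of a TSS. In old replicate 2 its peak (5.22) lay 1458 bp downstream. Psmd12 (10.4) and Psmd7 (9.61) were among the 5 highest of young replicate 2 and had no promoter peak elsewhere. Psmd13 (chr7:140881968-140898643, plus strand) had 3.9 in young replicate 1 and 5.14 in young replicate 2 and none in the old libraries. Its promoter is shared with Sirt3, a mitochondrial deacetylase gene, and the summit of replicate 2 was nearer the Sirt3 TSS. Psmd14, the deubiquitinase of the regulatory particle, had 4.85 in old replicate 2 and 6.53 in young replicate 2, with summits 174 and 181 bp downstream.

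Among the activators, 1, 3, 1 and 4 of 5 genes had a promoter peak. Psme3, which encodes the nuclear activator PA28 gamma, had fold enrichments of 4.85 in old replicate 2, 4.58 in young replicate 1 and 7.74 in young replicate 2. The young summits lay 642 and 563 bp downstream of the TSS. Psme4, which encodes PA200, had 3.0, 5.59 and 7.33 in the old replicates and young replicate 2, with summits 673, 554 and 830 bp downstream. Both genes were therefore covered in each group, and neither in every library. Psme1, a subunit of the interferon-induced activator, had no peak in any list, and its partner Psme2 had 4.54 in old replicate 2 and 4.87 in young replicate 2. The former summit was nearer the TSS of Rnf31, a ubiquitin ligase gene. Psme2b, a near-copy of Psme2 whose reads may not be told apart from those of Psme2, had 6.9 in young replicate 2.

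Psmf1, the proteasome inhibitor, had 5.63 in old replicate 1 and 9.15 in young replicate 2. Of the 4 assembly chaperones, 1, 3, 0 and 3 were covered. Psmg2 had 3.94, 4.85 and 6.83 in the old replicates and young replicate 2, at a promoter shared with Cep76, a centrosomal protein gene. In young replicate 2 the Psmg2 summit was nearer the Cep76 TSS. Psmg1 had 12.1 in young replicate 2 alone, the second value after Psmd4, and Psmg3 had 3.73 in old replicate 2 alone. Psmg4 had overlapping peaks of 6.71 and 8.39 in old replicate 2 and young replicate 2. Psmc3ip, a meiotic recombination factor that the symbol rule takes in and that is no proteasome subunit, had 6.06 in young replicate 2.

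Summits of promoter peaks lay mostly just downstream of the TSS. Their median distance was 313, 136, 85 and 108 bp downstream over the 13, 22, 3 and 44 proteasome genes, beside 137, 131, 52.5 and 98 bp over all genes with a promoter peak. Within 500 bp of the TSS lay 69.2%, 81.8%, 66.7% and 81.8% of the summits of proteasome genes and 59.5%, 72.2%, 61.6% and 67.5% of those of all genes. The median fold enrichment was 4.13, 5.34, 4.58 and 6.86, beside 3.94, 5.0, 4.16 and 5.82 over all genes. Both quantities describe the genes that had a peak and not all 50. Where the old replicates both had a promoter peak, the peaks overlapped at 5 of 6 proteasome genes, beside 60.4% of all such genes.

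**Figure D3:**
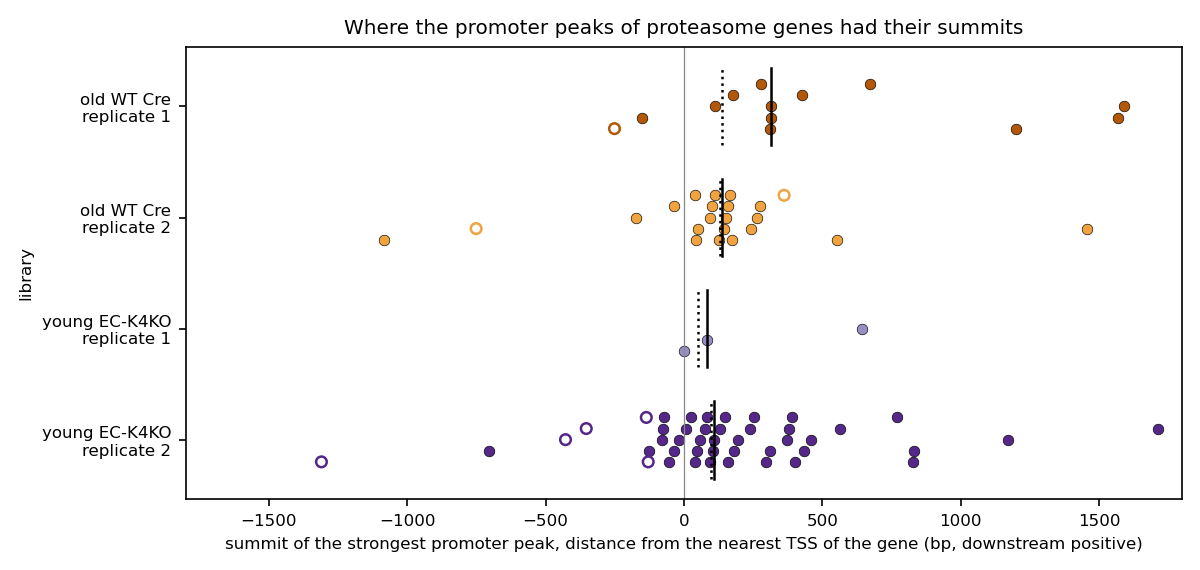
Points give the distance in bp from the nearest TSS of the gene to the summit of its strongest promoter peak, by library, with open points where the TSS of another protein-coding gene was nearer; a solid bar marks the median of the proteasome genes and a dotted bar that of all genes with a promoter peak. Medians of the proteasome genes lay between 85 and 313 bp downstream of the TSS, and those of all genes between 52.5 and 137 bp.

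In gene bodies, taken as the annotated gene further than 1500 bp from each of its TSSs, 49 of the 50 genes could be measured. A peak that reached both the promoter window and the body counted in each, as at Psmc2 and Psmd4. A body peak was present in 27 genes (55.1%) in old replicate 1, beside 50.3% of all genes, and in 15 (30.6%) in old replicate 2, beside 35.4%. In young replicate 1 it was 9 genes (18.4%, beside 27.9%), and in young replicate 2 it was 34 (69.4%, beside 74.4%). Weighted to the lengths of the proteasome genes, the shares of all genes were 38.6%, 24.6%, 17.7% and 66%. The bodies of proteasome genes were thus below all genes in 3 libraries. Beside genes of like length they had 8.09 and 2.96 more covered genes in the old replicates, and 0.351 and 1.68 more in the young replicates, where the share was near that background. The order depended on the setting. In old replicate 1 the share was 32.7% at q of at most 1e-05, beside 38% of all genes and 26.5% of genes of like length. It was 20.4% there at a fold enrichment of at least 4, beside 31.9% and 20.8%, and 22.4% with lists of equal length, beside 33% and 21.9%. In old replicate 2 it was above all genes at q of at most 1e-05 (26.5% beside 23.1%). In young replicate 2 it was 16.3% with lists of equal length, beside 32.2% and 21.9%, and 55.1% at a fold enrichment of at least 4, beside 66.6% and 56.3%. Over the whole annotated gene, promoter included, it was 56% in old replicate 2 (beside 44.4% of all genes) and 98% in young replicate 2 (beside 83%). The group means were 42.9% ± 17.3 (SD, n = 2) and 43.9% ± 36.1 (SD, n = 2), which differed by less than the spread within either group.

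Body peaks at Psma2 and Psmd9 lay largely outside the basic transcripts of these genes. The annotated gene spans 61 kb at Psma2 and 80.7 kb at Psmd9, and the basic transcripts 14.4 and 21.9 kb. Within the bounds of the basic transcripts, a choice made after the data were seen, 25, 13, 7 and 32 genes had a body peak, or 51.0%, 26.5%, 14.3% and 65.3%, beside 49.4%, 34.5%, 27.1% and 73.6% of all genes. Weighted to the lengths of the basic transcripts of proteasome genes, the shares of all genes were 36.7%, 22.6%, 15.8% and 64.7%, so that in young replicate 1 the proteasome genes then lay below genes of like length. The density of body peaks was then 4.11, 1.83, 0.913 and 8.68 per 100 kb in proteasome genes and 3.38, 1.55, 1.24 and 9.9 over all genes. In young replicate 1 the order of the 2 densities depended on these bounds, since it was 1.32 beside 1.25 with the annotated genes.

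A body peak in all 4 libraries was found at Psma2, Psmb1, Psmb7, Psmd9 and Psme4 (10.2%, beside 17.0% of all genes), and within the basic transcripts at Psmb1, Psmb7 and Psme4 (6.12%, beside 16.3%). Psmb7 had 4, 1, 2 and 5 body peaks over 54.6 kb, and Psme4, with a body of 107 kb, had 1, 2, 1 and 1. Psmd14, with 87.2 kb, had 0, 0, 0 and 6, and the relation to length was not tested. Psmb6 was the 1 gene with a body peak in both old and neither young library (0.51% of all genes), no gene had the opposite pattern (2.81% of all genes), while 8 genes had no body peak in any library (16.3%, beside 20.9%). The Psmb6 body peaks, of fold enrichment 3.82 and 3.3, lay in exons and overlapped. Of the 11 proteasome genes with a body peak in both old libraries (22.4%, beside 28.9% of all genes), 3 had peaks that overlapped, beside 41.0% of all such genes. The others had them at different places of the same gene.

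**Figure D4:**
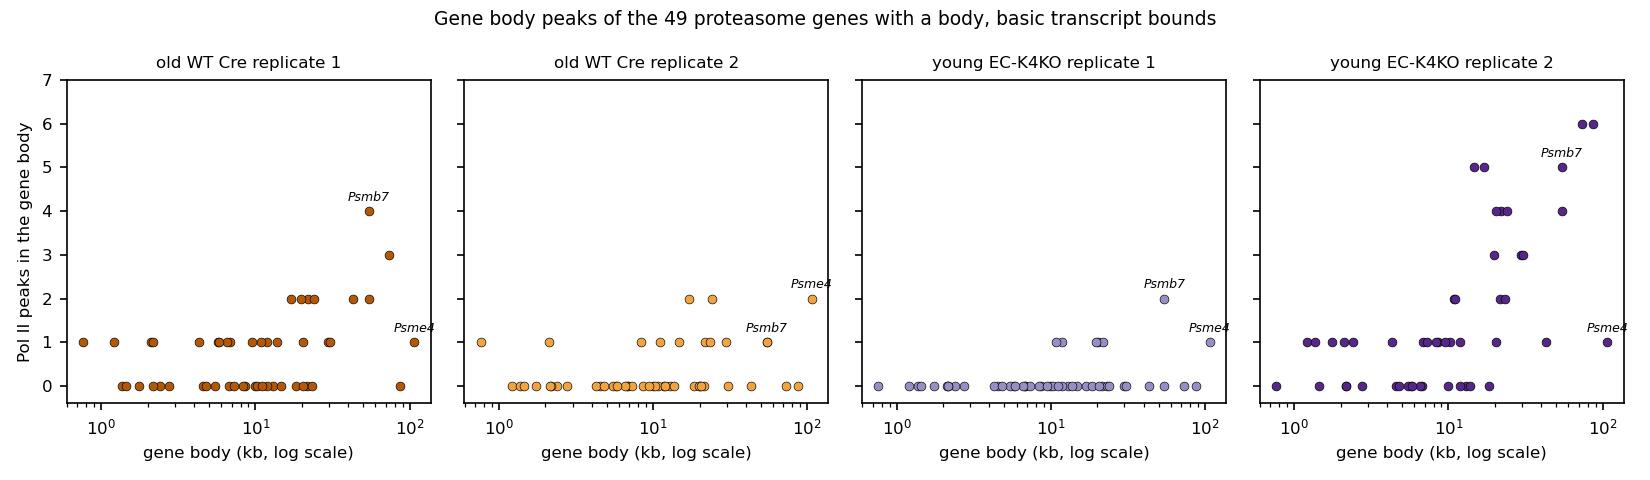
Each point is 1 of the 49 proteasome genes with a body, with its body length in kb within the basic transcripts on a log axis and its number of Pol II peaks there, in 1 panel per library. Most genes had 0 or 1 body peak in the first 3 panels, while in young replicate 2 Psmd14 reached 6 and Psmb7 5.

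Of 37 further genes of the ubiquitin and proteasome pathway, 17, 11, 7 and 31 had a promoter peak, beside the same shares of all genes as above. Txnl1, a thioredoxin-like protein bound to the regulatory particle, had one in all 4 libraries (fold enrichment 5.26, 7.83, 4.13 and 13.9). Nfe2l2, which encodes NRF2, had one in 3 libraries (7.89 and 5.22 in the old replicates and 8.83 in young replicate 2), and Nfe2l1, which encodes the proteasome regulator NRF1, in young replicate 2 alone (5.95). Ngly1, the glycanase that activates NRF1, had 4.1 in old replicate 2 and 15.9 in young replicate 2. In young replicate 1 the covered genes included Adrm1, a ubiquitin receptor (3.32), and Pomp, the proteasome maturation factor (4.05), both also listed in young replicate 2 (5.8 and 4.99) and in neither old library. Genes with no promoter peak in any list included Sem1, Nploc4, Ipo9 and Maff.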

How the data were processed

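The data were Pol II ChIP-seq peak lists, 2 per group. The submitters' processing notes name Bowtie2, MACS2 and mm10. Per the file headers, the authors called peaks in each library with MACS 2.2.7.1 at a q-value cutoff of 0.01, without a control library. The deposited tables give a pileup (a coverage signal), a fold enrichment (a ratio to the local background of that library), and −log10 of the p-value and q-value, none scaled between libraries. Depth is the fragment number in the header.

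Genes came from GENCODE M21 (basic) on GRCm38, with gene bounds of the full annotation. Lists were joined to genes in Python 3.11.15 with numpy 2.4.6 and pandas 2.3.3, and samtools 1.23.1 read the sequences. The joining of peaks to promoters and gene bodies and the weighting for gene length were tested on simulated data, and the other steps were not. Shares of all genes were weighted to the lengths of the proteasome genes in 10 classes. Genes were named if they had promoter peaks in all 4 libraries, in both of one group and neither of the other, or in none, if they were Psmb5 to Psmb10 or Psme1 to Psme4, or if they were among the 5 highest fold enrichments of a library; others were named after their values were seen. Of the pathway list, Paaf1 was not analysed here. The proteasome genes, the other lists and the tests were chosen with earlier results of these data known. The settings varied were q, fold enrichment, list length, TSS window, summit, 5′-most TSS, 20 length classes, gene bounds, and leaving out each library. ATAC-seq and RNA-seq data were not analysed here.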

Additional observations from a re-analysis of the deposited data

How the results depend on the processing

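Of the recomputed counts of genes, 62 stayed within 1.5 times the value reported and 37 did not. Those 37 included 20 of 39 with another peak threshold or list length and 6 of 44 with another window, TSS or gene bounds. The rest were 11 of 16 without 1 library, where a count can only stay or rise. Promoter counts moved from 13 to 7 in old replicate 1 at a fold enrichment of at least 4, to 8 with lists of equal length and to 21 with a window of 3000 bp (all genes 25.6% to 11.7%, 11.8% and 33.9%). In old replicate 2 they moved from 22 to 13 at q of at most 1e-05 (24.5% to 13.4%), in young replicate 1 from 3 to 1 at that q and to 5 with 3000 bp (10.6% to 3.31% and 14.1%), and in young replicate 2 from 44 to 28 with lists of equal length (67.5% to 27.7%). Gene body counts moved from 27 of 49 to 16, 10 and 11 in old replicate 1 (stricter q, fold enrichment, equal length; 38%, 31.9% and 33% of all genes, beside 50.3%), from 15 to 28 in old replicate 2 over the whole annotated gene (35.4% to 44.4% of all genes), from 9 to 5 in young replicate 1 at the stricter q (27.9% to 12.1%), and from 34 to 8 in young replicate 2 with lists of equal length (74.4% to 32.2%). The 6 genes in both old libraries became 3 at the stricter q and at a fold enrichment of at least 4, and 10 with 3000 bp (all genes 10.1% to 3.77%, 4.58% and 13.9%), and the 2 in both young libraries became 0, 1 and 4 in these settings (9.11% to 2.63%, 5.5% and 12.3%) and 1 with equal length or a window of 500 bp (5.21% and 6.2%). The counts of 1 gene in both libraries of one group and neither of the other became 0 at the stricter q and at the fold enrichment minimum, and for the young group also with lists of equal length (all genes 0.438% and 0.41% for the old, 1.2%, 2.34% and 2.0% for the young group).

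Leaving out 1 library can only keep or raise the counts of genes shared by libraries or confined to a group, so it is no test of them. For both old and both young it leaves the count of the remaining library. That count was 13 and 22 genes for old (all genes 25.6% and 24.5%), and 3 and 44 for young (10.6% and 67.5%). Leaving out 1 library gave 1 to 5 genes for old alone (3.79% and 7.79% of all genes at these 2 counts). The range was 1 to 18 for young alone (4.02% or 4.93%, and 33.7%) and 0 to 4 for all libraries (4.06% and 9.22%). The 44 and the 18 came without young replicate 1, and the 5 without young replicate 2. The causes were not tested. In the RefSeq windows the antioxidant response element core was in 6 of 42 genes (14.3%, beside 15%), the ETS string in 9 (21.4%, beside 5.94%), the GC box in 54.8% (beside 51.0%) and TGACGTCA in 0 (beside 2.64%). The replicate number was used as a block after the data were seen, although the labels state no pairing of replicates between the groups. The promoter share then differed, young minus old, by -20 and 44 percentage points in the 2 pairs (mean 12 ± 45.3, SD). The gene body share differed by -36.7 and 38.8 (mean 1.02 ± 53.4). The exact permutation p was 1.0 with and without the block, and 2 pairs allow none below 0.5. No proteasome gene had a promoter peak in all 4 libraries for a comparison of fold enrichments or scaled pileups. Without 1 library, the fold enrichment, young minus old, differed by 1.31 at Psme3 (without old replicate 1), by 0.93 to 3.04 at Psma2, Psma3, Psme4 and Psmg2 (without young replicate 1) and by -0.795 at Psma8 (without young replicate 2), with the scaled pileup in the same direction, and none was tested. The longest list came from the fewest fragments, the part of depth was not tested, and a gene with no listed peak is not shown to lack Pol II.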

Other observations

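Another protein-coding gene had a TSS within 1500 bp at 12 of the 50 proteasome genes (24.0%), beside 13.0% of all protein-coding genes. Of these 12, 3, 6, 1 and 11 had a promoter peak in the order old replicates 1 and 2, young replicates 1 and 2, and of the other 38 genes 10, 16, 2 and 33 had one. Over all genes, those with such a neighbour had a promoter peak in 34.0%, 37.2%, 15.8% and 83.7%, and those without in 24.4%, 22.6%, 9.85% and 65.1%. No difference between these shares was tested.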
